A study of Mus musculus with 6 samples.

Results

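The cullin and NEDD8 genes described here are the 8 cullins Cul1, Cul2, Cul3, Cul4a, Cul4b, Cul5, Cul7 and Cul9, the ubiquitin-like protein gene Nedd8, and Ube2m, a NEDD8-conjugating enzyme. They were chosen by gene symbol, and 9 of the 10 had a probe set paired with their symbol, out of 19505 genes named on the array. For Ube2m no probe set carried the symbol, and it was not analysed here. Each of the 9 measured genes had 1 probe set. Gene expression had been measured on 6 single-colour arrays of total RNA labelled as colon crypt RNA of C57BL/6J mice. The 3 PBS arrays came from animals labelled as controls, and PBS is the name in their titles. The 3 MBELN arrays came from animals given MBELN, exosome-like nanoparticles from mulberry bark, by mouth every day for 7 days. All groups share the strain, and the labels used here give neither an age nor a pooling of animals. The labels do not say that each array is a different mouse, and the p-values below therefore cover only differences among arrays, possibly technical ones. Values are log2 signals of a probe set in an array, and a difference of 1 is a doubling or halving on that scale.

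Cullins are scaffolds of the largest family of ubiquitin ligases. The front end of a cullin holds a substrate adaptor, which picks the protein to be marked, and the rear end holds a RING protein, Rbx1 or Rnf7, which brings in the ubiquitin-carrying enzyme. A cullin becomes active when NEDD8 is attached to it by an enzyme chain of its own, and it is switched off when the COP9 signalosome removes NEDD8. The study behind this series is known for following Cops8, a subunit of the COP9 signalosome, in the colon, and the comparison of MBELN with PBS asks which crypt transcripts differ after the treatment.

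Tissue marker genes differed between the arrays in ways that the labels do not describe, and every value below stands beside that. The dim level is the signal below which 95% of the probe sets of smell and vomeronasal receptors lay in an array, 3.99 to 4.44. In the PBS arrays the median of 15 gut epithelial genes was 17.79 to 17.91, and in MBELN 1, 2 and 3 it was 6.90, 3.82 and 5.59. Epcam, the epithelial adhesion molecule, read 18.97 to 19.41 in PBS, 7.12 and 7.54 in MBELN 1 and 3, and 2.47 in MBELN 2. Heart muscle genes had a median of 18.06 and 18.39 in MBELN 1 and MBELN 3 and of 3.66 to 3.996 in the other arrays, and all 15 lay above the dim level in those 2 arrays. Neuronal genes had a median of 15.56 in MBELN 2, with 13 of 13 above the dim level, and of 3.55 to 4.36 elsewhere. Glial genes were bright in the same array, with a median of 9.17 and 9 of 9 above the dim level, against 3.01 to 3.65 elsewhere. Colon-enriched epithelial genes had a median of 15.43 in PBS 2 and of 3.56 and 2.98 in PBS 1 and PBS 3, where Paneth cell genes of the small intestine read 19.06 and 19.61 against 3.63 in PBS 2. Smooth muscle genes had a median of 16.35 to 19.33 in PBS and of 11.95, 3.61 and 10.35 in MBELN 1, 2 and 3. The log2 of the summed gut epithelial signal was 22.08 to 22.59 in PBS and 7.81 to 11.17 in MBELN, that of heart muscle 9.09 to 11.32 in PBS and 11.38 to 22.31 in MBELN, and that of neurons 8.88 to 9.19 and 10.16 to 21.79. MBELN 1 and 3 are called heart-marked and MBELN 2 neuron-marked below, after these genes alone. Heart, neuronal and small intestinal markers go against the label of colon crypt in MBELN 1 and 3, in MBELN 2 and in PBS 1 and 3, and whether samples were mixed up or mislabelled was not tested. Group and tissue markers cannot be told apart in this design, so each difference below is one between libraries labelled MBELN and libraries labelled PBS, and cannot be read as an effect of the treatment. In bulk RNA, fewer cells of a type and less RNA per cell cannot be told apart either.

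**Figure D1:**
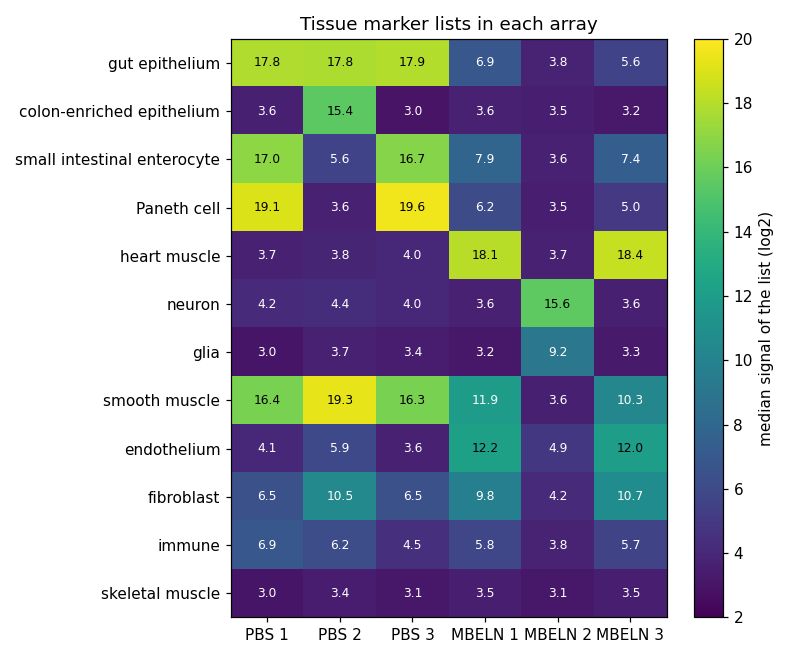
Median log2 signal of 12 tissue marker lists (rows) in each of the 6 arrays (columns), with the value printed in each cell. Gut epithelial genes were above 17 in the 3 PBS arrays only, heart muscle genes above 18 in MBELN 1 and 3 only, and neuronal genes at 15.56 in MBELN 2 only.

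Cul7 was the cullin with a difference between the groups that passed the test. Cul7 encodes a large cullin that works with the F-box protein Fbxw8 and Skp1 and is known for its part in growth control. Its values were 5.65, 5.54 and 4.89 in PBS 1, 2 and 3, against 7.14, 7.03 and 7.60 in MBELN 1, 2 and 3. All MBELN arrays, heart-marked and neuron-marked alike, lay above all PBS arrays, with 1.39 between the nearest of them. Cul7 rose by 1.90 ± 0.34 (log2, SE, n = 3 per group), a 3.73-fold difference (limma, adjusted p = 0.0382). The call ended without PBS 1 (limma, adjusted p = 0.125), PBS 2 (0.0621), PBS 3 (0.141), MBELN 1 (0.124) or MBELN 3 (0.135). It held without MBELN 2 (limma, adjusted p = 0.0186) and without both arrays numbered 2 (0.00641). In those settings 16.8% and 30.5% of all probe sets passed, and the latter was chosen with earlier results of these data known. The Cul7 call also ended with dim probe sets left out (limma, adjusted p = 0.0652), a trended robust variance (0.117) or hybridisation control signal as a blocking factor (0.0609). The replicate number as a block ended it as well (0.163). The difference itself lay between 1.66 and 2.10 in all 16 alternative settings.

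Cul9, the closest relative of Cul7 and also known as Parc, is a large cytoplasmic cullin. It read 4.52, 5.04 and 4.38 in PBS 1, 2 and 3, against 5.90, 6.84 and 5.87 in MBELN 1, 2 and 3. The PBS values lay less than 1 above the dim level of their arrays, and the highest value was in the neuron-marked array. Groups did not overlap. The difference of 1.56 ± 0.39 (log2, SE, n = 3 per group) did not pass the test (limma, adjusted p = 0.105). It was 0.84 within PBS 2, MBELN 1 and MBELN 3 and 2.39 within PBS 1, PBS 3 and MBELN 2, which had the brighter and the dimmer hybridisation controls.

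Cul7 and Cul9 lie on mouse chromosome 17 with 5 annotated genes between them. The sequence before each start is shown because these relatives were both higher in every MBELN array. It comes from RefSeq, build GRCm38.p6, and is written 5′ to 3′ on the gene's strand up to the base before the start. The stretch of Cul9 is chr17:46546389-46546638 on the minus strand, and that of Cul7 is chr17:46650133-46650337 on the plus strand. The stretch of Cul7 leaves out the part that lies in the neighbouring gene Mrpl2. Capitals mark the letters GCGTG on either strand, the core of the sequence bound by the aryl hydrocarbon receptor.
Cul9: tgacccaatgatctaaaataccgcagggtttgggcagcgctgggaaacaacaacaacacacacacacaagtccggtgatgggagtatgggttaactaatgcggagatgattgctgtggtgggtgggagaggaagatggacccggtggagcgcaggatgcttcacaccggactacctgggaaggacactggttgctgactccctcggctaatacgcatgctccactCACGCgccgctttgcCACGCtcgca
Cul7: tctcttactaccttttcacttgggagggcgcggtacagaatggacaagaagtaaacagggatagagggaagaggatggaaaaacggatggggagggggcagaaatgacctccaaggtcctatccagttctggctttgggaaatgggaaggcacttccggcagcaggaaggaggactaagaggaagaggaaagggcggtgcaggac
The 250 bases before the start held GCGTG on either strand 2 times for Cul9 and 0 times for Cul7, and 28.2% of 32851 such windows held it at least once. GGGCGG, the GC box, was found 1 time for Cul7 and 0 times for Cul9, against 32.7% of windows. CCGGAA, an ETS factor core, was likewise found 1 time for Cul7 and 0 times for Cul9 (12% of windows), and CCAAT 0 times for Cul7 and 1 time for Cul9 (33.8%). Such letter matches are a description of these windows and not of binding.

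The genes between the pair, given because of their position, differed from it in order. Srf, a transcription factor gene, read 8.21, 6.98 and 9.04 in PBS and 10.14, 7.03 and 9.38 in MBELN 1, 2 and 3. Mrpl2, which encodes a mitochondrial ribosomal protein, read 8.48, 6.76 and 8.46 in PBS and 10.00, 6.64 and 10.89 in MBELN. Klc4, a kinesin light chain gene, lay lower in every MBELN array, with 10.77, 7.98 and 9.97 in PBS and 7.02, 5.98 and 5.94 in MBELN (limma, adjusted p = 0.0938). Ptk7 lay below the dim level in all 6 arrays. Of these 4 genes 0 passed the test with limma, and 1, Klc4, had an unadjusted p under 0.05. Over all probe sets 5.18% passed and 17.8% had such a p. Mir6976, the remaining gene between the pair, had no probe set paired with its symbol.

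Cul3 and Cul5 also lay higher in every MBELN array than in any PBS array, by smaller amounts. Cul3 is the scaffold for BTB-domain adaptors such as Keap1, the sensor of oxidative stress. It read 10.22, 9.68 and 10.19 in PBS 1, 2 and 3, against 10.96, 11.31 and 10.87 in MBELN 1, 2 and 3. The 2 heart-marked arrays differed by 0.08 and PBS 1 and PBS 3 by 0.03. The difference was 1.01 ± 0.30 (log2, SE, n = 3 per group) and missed the threshold (limma, adjusted p = 0.148). Cul5, which pairs with Rnf7 and with SOCS-box adaptors, read 8.55, 8.81 and 8.52 in PBS and 9.23, 10.19 and 9.93 in MBELN 1, 2 and 3. PBS values spanned 0.29 and MBELN values 0.96. Its difference was 1.16 ± 0.34 (limma, adjusted p = 0.152).

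Cul2 differed mainly in the heart-marked arrays. Cul2 is the scaffold that carries Vhl, the adaptor for hypoxia-inducible factors. It read 7.69, 7.30 and 8.71 in PBS 1, 2 and 3, against 9.97, 8.65 and 10.04 in MBELN 1, 2 and 3. MBELN 2 lay just below PBS 3, so the groups overlapped. The difference was 1.65 ± 0.57 (log2, SE, n = 3 per group; limma, adjusted p = 0.212). Without MBELN 2 it was 2.11 (limma, adjusted p = 0.0382), and without both arrays numbered 2 it was 1.80 (adjusted p = 0.0163). In those settings 16.8% and 30.5% of all probe sets passed, and the latter was chosen with earlier results of these data known.

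The other 3 canonical cullins had overlapping groups. Cul1, the scaffold of F-box ligases, read 9.60, 10.70 and 8.81 in PBS and 7.92, 9.49 and 9.74 in MBELN 1, 2 and 3. PBS 2 was the highest array and MBELN 1 the lowest. The heart-marked arrays differed by 1.83 from each other, where the median gene above the dim level in either group differed by 0.47. Its difference was -0.65 ± 0.71 (log2, SE, n = 3 per group; limma, adjusted p = 0.675), with a 95% interval from -2.41 to 1.10.

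Cul4a and Cul4b are paralogs that both bind the adaptor Ddb1. Cul4a read 8.09, 8.10 and 8.30 in PBS and 9.67, 7.19 and 9.03 in MBELN 1, 2 and 3, so the heart-marked arrays stood above all PBS arrays and the neuron-marked array below them. Cul4b read 8.86, 8.75 and 9.03 in PBS and 7.998, 9.31 and 8.74 in MBELN 1, 2 and 3. It was lowest in MBELN 1 and highest in MBELN 2, while MBELN 3 lay next to PBS 2. The heart-marked arrays differed by 0.74 from each other for Cul4b. In PBS the paralogs spanned 0.20 and 0.28, and in MBELN 2.47 and 1.32. The differences were 0.47 ± 0.67 for Cul4a (95% interval -1.19 to 2.13) and -0.19 ± 0.40 for Cul4b (-1.19 to 0.81). Neither passed the test (limma, adjusted p = 0.759 and 0.843). Whether the paralogs' differences differ from each other was not tested.

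Nedd8 encodes the ubiquitin-like protein that is attached to cullins. Its values were 9.91, 10.38 and 10.18 in PBS 1, 2 and 3, against 11.02, 9.47 and 10.90 in MBELN 1, 2 and 3. The heart-marked arrays were the highest and the neuron-marked array the lowest of the 6. The difference was 0.31 ± 0.49 (log2, SE, n = 3 per group; limma, adjusted p = 0.787), with a 95% interval from -0.92 to 1.53. Within PBS 1, PBS 3 and MBELN 2, the arrays with dimmer hybridisation controls, it was -0.58.

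**Figure D2:**
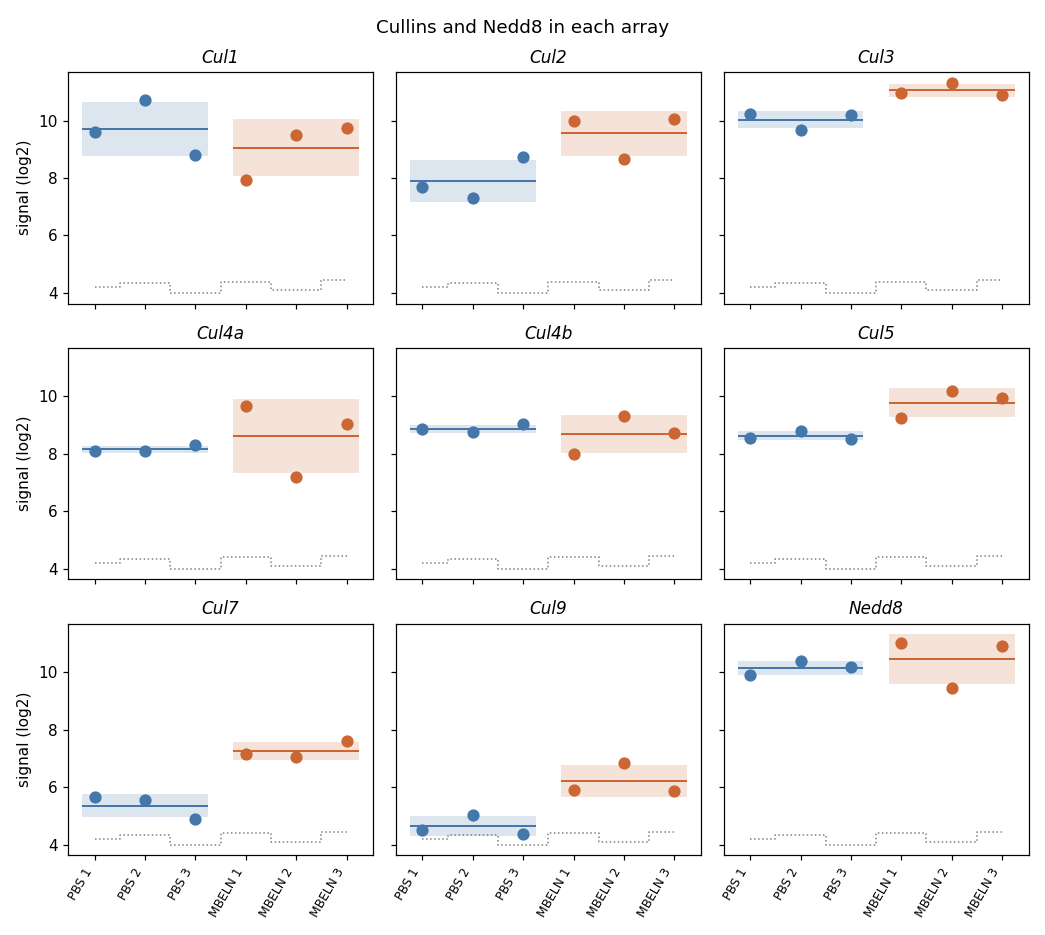
Log2 signal (vertical axis) of the 8 cullins and Nedd8 in each array (horizontal axis). Points are single arrays, lines are group means, shaded bands are 1 SD (n = 3) and the dotted line is the dim level of the array. For Cul3, Cul5, Cul7 and Cul9 all MBELN points lie above all PBS points, and for Cul4a and Nedd8 MBELN 2 is the lowest point.

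Of the 9 measured genes, 1 rose, 0 fell and 8 did not pass (limma with Benjamini-Hochberg adjustment over 22206 probe sets), and 5 had an unadjusted p under 0.05. Over all probe sets 5.18% passed, 1.42% higher and 3.76% lower, and 17.8% had an unadjusted p under 0.05. MBELN lay above PBS without overlap in 4 of the 9 and below in 0. Over all probe sets these shares were 11.9% and 13.4%, or 25.3% together. Among the 14243 probe sets whose mean lay above the dim level in either group, 14.3% lay above. The median difference of the 9 genes was 1.01, against 0.09 over all probe sets. Without MBELN 2, 2 of 9 passed, beside 16.8% of all probe sets, and without both arrays numbered 2, 3 of 9 passed, beside 30.5%. All 9 genes lay above the dim level in all 6 arrays.

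Across arrays with such different tissue markers the cullins and Nedd8 spanned between 1.32 for Cul4b and 2.79 for Cul1. Their median range was 2.47, against 3.15 for 12816 genes whose mean lay above the dim level in either group. Between 57.0% of those genes (for Cul1) and 89.9% (for Cul4b) had a larger range. That set also takes in genes bright in only 1 group, while the 9 lay above the dim level in every array. The ranges are therefore not compared like with like. Of the 9, 4 were highest in MBELN 2, namely Cul3, Cul4b, Cul5 and Cul9. Another 4, Cul2, Cul4a, Cul7 and Nedd8, were highest in a heart-marked array, and Cul1 was highest in PBS 2. The shares of all genes highest in each array were not taken. After centring each gene on its own mean, the most alike were Cul4a and Nedd8, with a root mean square difference of 0.31 over the 6 arrays, followed by Cul5 and Cul9 with 0.33 and Cul3 and Cul5 with 0.36. Among 19504 other genes, and leaving out predicted genes without a proper symbol, the patterns most like that of Cul7 by the same measure were those of Ndufaf5 (0.13), Tomm6 (0.18) and Kpna3 (0.20).

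The enzymes that charge and transfer NEDD8 mostly followed the heart-marked arrays. The activating enzyme is a dimer of Nae1 and Uba3. Nae1 read 8.13, 9.36 and 7.69 in PBS 1, 2 and 3, against 9.91, 7.46 and 9.88 in MBELN 1, 2 and 3. Uba3 read 10.66, 10.97 and 10.29 in PBS and 11.59, 10.31 and 11.82 in MBELN. For both, the heart-marked arrays were highest, and MBELN 2 lay near the lowest PBS array. Ube2f, the conjugating enzyme for Cul5, read 10.48, 10.68 and 10.38 in PBS and 12.34, 10.19 and 12.78 in MBELN, with the same order.

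Rbx1, the RING partner of most cullins, was more even. It read 7.44, 8.35 and 8.25 in PBS 1, 2 and 3, against 9.63, 9.24 and 9.45 in MBELN 1, 2 and 3, without overlap. Its difference was 1.43 ± 0.35 (log2, SE, n = 3 per group; limma, adjusted p = 0.0940). Rnf7, the RING partner of Cul5, varied widely, with 8.47, 10.83 and 8.58 in PBS and 11.60, 9.06 and 12.89 in MBELN. Among the Dcun1d genes, which promote the transfer of NEDD8 to cullins, Dcun1d2 (difference 2.36 ± 0.62; limma, adjusted p = 0.115) and Dcun1d5 (1.86 ± 0.57; adjusted p = 0.164) did not overlap between groups. Dcun1d4 read 10.95 in MBELN 2 and at most 7.54 elsewhere. Dcun1d1 had the only negative difference among the 10 genes of this list, with 11.08, 10.38 and 11.62 in PBS and 10.12, 9.54 and 11.88 in MBELN (-0.52 ± 0.70; limma, adjusted p = 0.747). Dcun1d3 overlapped between the groups as well (0.38 ± 0.34; adjusted p = 0.618).

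Of the 10 measured genes of NEDD8 activation and transfer, 3 had an unadjusted p under 0.05 and 0 passed after adjustment in either direction (limma). Over all probe sets 17.8% had such a p and 5.18% passed. MBELN lay above PBS without overlap in 3 and below in 0, where the shares of all probe sets were 11.9% and 13.4%, and the median difference was 1.34. Without MBELN 2 the number that passed was 4 of 10, and without both arrays numbered 2 it was 7 of 10, all of them higher in MBELN. Of all probe sets 16.8% and 30.5% passed in either direction in these settings, and 56.5% and 49.5% of those were higher.

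Removal of NEDD8 and exchange of cullins showed 1 gene past the threshold, higher in MBELN, among 8 measured, beside 1.42% of all probe sets higher and 3.76% lower. Cops8 read 6.95, 6.41 and 7.07 in PBS 1, 2 and 3, against 9.26, 9.65 and 10.49 in MBELN 1, 2 and 3, a gap of over 2 between the groups in every array. Cops8 rose by 2.99 ± 0.42 (log2, SE, n = 3 per group; limma, adjusted p = 0.0180), and the call ended without PBS 1 (limma, adjusted p = 0.0931), PBS 3 (0.0813) or MBELN 3 (0.0555). It ended too with the replicate number as a block (limma, adjusted p = 0.0704). Cops5, the subunit of the COP9 signalosome that cuts NEDD8 off, read 9.84, 9.64 and 10.33 in PBS and 11.16, 9.80 and 11.97 in MBELN. Its partner subunit Cops6 read 11.65, 10.95 and 11.69 in PBS and 13.54, 10.98 and 13.79 in MBELN. In both, the neuron-marked array lay among the PBS values (limma, adjusted p = 0.450 and 0.473), and whether their differences differ from that of Cops8 was not tested.

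Cand1 and Cand2 swap adaptors on cullins that carry no NEDD8, and they ran in opposite directions in the heart-marked arrays. Cand1 read 9.41, 8.66 and 9.13 in PBS 1, 2 and 3, against 7.56, 9.93 and 7.45 in MBELN 1, 2 and 3. Cand2, the form known from striated muscle, was below the dim level in the 3 PBS arrays and in MBELN 2, and read 7.64 and 8.55 in MBELN 1 and 3. Neither passed the test over all arrays (limma, adjusted p = 0.647 and 0.386). Without both arrays numbered 2, a setting chosen with earlier results of these data known, 30.5% of all probe sets passed. In it Cand1 fell by 1.77 (limma, adjusted p = 0.00555) and Cand2 rose by 4.17 in the fit (adjusted p = 0.000269). Senp8, which matures NEDD8 and strips it from other proteins, read 5.32 to 6.52 in PBS and 4.89 to 6.36 in MBELN (limma, adjusted p = 0.855). Uchl3, a hydrolase of NEDD8 and ubiquitin, and Glmn, which blocks Rbx1, did not pass either (adjusted p = 0.381 and 0.552). The list had a median difference of 1.12.

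**Figure D3:**
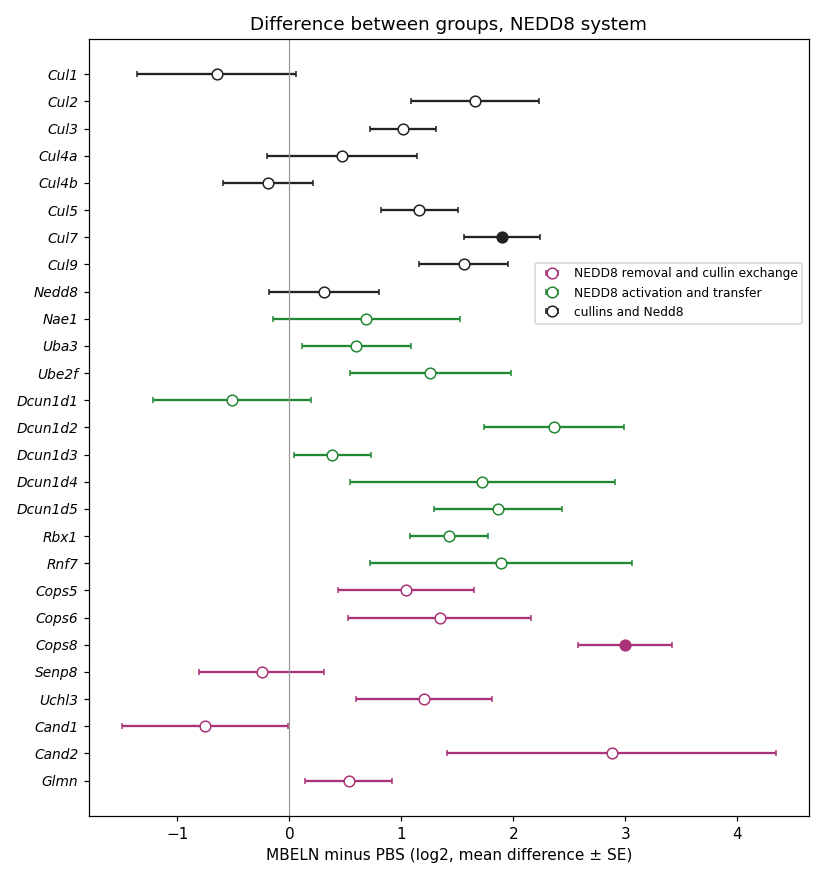
Difference of MBELN minus PBS (log2, horizontal axis) for the cullins and Nedd8 (black), NEDD8 activation and transfer (green) and NEDD8 removal and cullin exchange (purple). Points are mean differences with SE over 3 arrays per group, and filled points passed an adjusted p of 0.05, which were Cul7 and Cops8.

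The median range over the 6 arrays was 3.17 for the Cul1 list, 3.93 for that of Cul2 and Cul5, 3.54 for that of Cul3 and 2.21 for that of Cul4, beside the 2.47 of the cullins and Nedd8. The lists were chosen with earlier results of these data known, so their ranges, medians and counts describe only the genes listed. Of the 12 measured genes of the Cul1 list, which holds Skp1 and F-box proteins, 2 had an unadjusted p under 0.05 (limma). After adjustment 0 passed in either direction. Over all probe sets 17.8% had such a p and 5.18% passed. In MBELN 2, 7 of the 12 were highest, and the share of all genes highest there was not taken. Fbxw7, which marks growth regulators such as cyclin E, read 4.79, 3.58 and 4.51 in PBS 1, 2 and 3, against 7.13, 12.08 and 8.16 in MBELN 1, 2 and 3 (difference 4.83 ± 1.33, SE; limma, adjusted p = 0.127). Fbxl16, singled out after its values had been seen, read 16.74 in MBELN 2 and 2.93 to 3.63 in the other arrays, which is below the dim level.

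Of 20 measured adaptors of Cul2 and Cul5, 2 rose, 0 fell and 18 did not pass, beside 1.42% of all probe sets higher and 3.76% lower. Eloc, the elongin C that links adaptors to both scaffolds, read 9.72, 10.81 and 9.67 in PBS 1, 2 and 3, against 13.13, 12.05 and 13.13 in MBELN 1, 2 and 3 (limma, adjusted p = 0.0404). Klhdc2, which recognises protein ends, rose by 3.57 ± 0.41 (log2, SE, n = 3 per group; limma, adjusted p = 0.00990). The call of Eloc ended without PBS 1 (limma, adjusted p = 0.179), PBS 3 (0.172), MBELN 1 (0.146) or MBELN 3 (0.150) and with a trended robust variance (0.105), and that of Klhdc2 without PBS 1 (0.0619), PBS 3 (0.0564) or MBELN 3 (0.0557). With the replicate number as a block both calls ended (limma, adjusted p = 0.168 for Eloc and 0.0626 for Klhdc2). Asb15, a SOCS-box adaptor singled out after its values had been seen, read 10.45 and 9.01 in MBELN 1 and 3 and lay below the dim level in the other 4 arrays. In this list, chosen with earlier results of these data known, 11 genes were highest in a heart-marked array, and the median difference was 1.92. Both values depend on which adaptors were listed. The share of all genes highest in a heart-marked array was not taken.

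Among 20 measured BTB adaptors of Cul3, 1 rose, 1 fell and 18 did not pass, where 5.18% of all probe sets passed in either direction. Kctd5 read 9.98, 9.31 and 10.18 in PBS 1, 2 and 3, against 3.52, 5.48 and 4.87 in MBELN 1, 2 and 3, and it fell by 5.20 ± 0.58 (log2, SE, n = 3 per group; limma, adjusted p = 0.00901). Klhl13 rose by 3.37 ± 0.53 (limma, adjusted p = 0.0254), from 4.41, 5.28 and 3.65 in PBS 1, 2 and 3. Its value in PBS 3 lay below the dim level of that array, 3.99. Likewise Kctd5 in MBELN 1 lay below the dim level of that array, 4.39. The sizes of both differences rest in part on signals below that level. Keap1 read 7.59 to 7.92 in PBS and 7.90 to 8.69 in MBELN. The call of Kctd5 ended without PBS 1 (limma, adjusted p = 0.0597) or PBS 3 (0.0587), and that of Klhl13 without PBS 1 (0.125), PBS 3 (0.0909), MBELN 1 (0.0952) or MBELN 3 (0.0978). Both calls also ended with the replicate number as a block (limma, adjusted p = 0.0628 for Kctd5 and 0.103 for Klhl13). Klhl31, singled out after its values had been seen, read 11.47 and 11.62 in the heart-marked arrays and at most 2.82 elsewhere.

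The Cul4 list of Ddb1 and its adaptors had the lowest median difference of the 4 adaptor lists, -0.52, with 1 of 17 higher, 1 lower and 15 not past the threshold, against the same 5.18%. Dcaf6 rose by 3.05 ± 0.36 (log2, SE, n = 3 per group; limma, adjusted p = 0.0102), with 6.65, 6.24 and 5.81 in PBS 1, 2 and 3, against 9.66, 8.94 and 9.25 in MBELN 1, 2 and 3. Dcaf13 fell by 1.70 ± 0.26 (adjusted p = 0.0237), with 9.16, 9.36 and 9.53 in PBS and 7.80, 7.51 and 7.66 in MBELN. The call of Dcaf6 ended without PBS 3 (limma, adjusted p = 0.0558) or MBELN 3 (0.0564), and that of Dcaf13 without PBS 1 (0.101), PBS 3 (0.123), MBELN 1 (0.0838) or MBELN 3 (0.0965), with dim probe sets left out (0.0644) and with a trended robust variance (0.146). Neither call held with the replicate number as a block (limma, adjusted p = 0.0549 for Dcaf6 and 0.129 for Dcaf13). Ddb1 itself read 11.48, 10.36 and 12.07 in PBS and 10.53 to 10.57 in MBELN (adjusted p = 0.492).

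The list of Cul7 partners holds 3 measured genes, Fbxw8, Obsl1 and Ccdc8, and none passed the test. Skp1, which was listed with Cul1, read 15.06 to 15.90 in PBS and 15.63 to 16.17 in MBELN (limma, adjusted p = 0.481). Fbxw8, the F-box protein of Cul7, read 8.90, 8.67 and 8.81 in PBS 1, 2 and 3, against 9.30, 8.02 and 8.75 in MBELN 1, 2 and 3. Its difference was -0.10 ± 0.39 (log2, SE, n = 3 per group; limma, adjusted p = 0.919). Obsl1, a cytoskeletal adaptor of Cul7, lay below the dim level in PBS and MBELN 2 and at 4.47 and 5.02 in MBELN 1 and 3. Ccdc8 lay below it in all 6 arrays. With limma 0 of the 3 passed, and 0 had an unadjusted p under 0.05. Over all probe sets these shares were 5.18% and 17.8%. The 2 cullin-related genes Anapc2 and Cacul1 were both highest in a PBS array, and neither passed (adjusted p = 0.508 and 0.329).

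**Figure D4:**
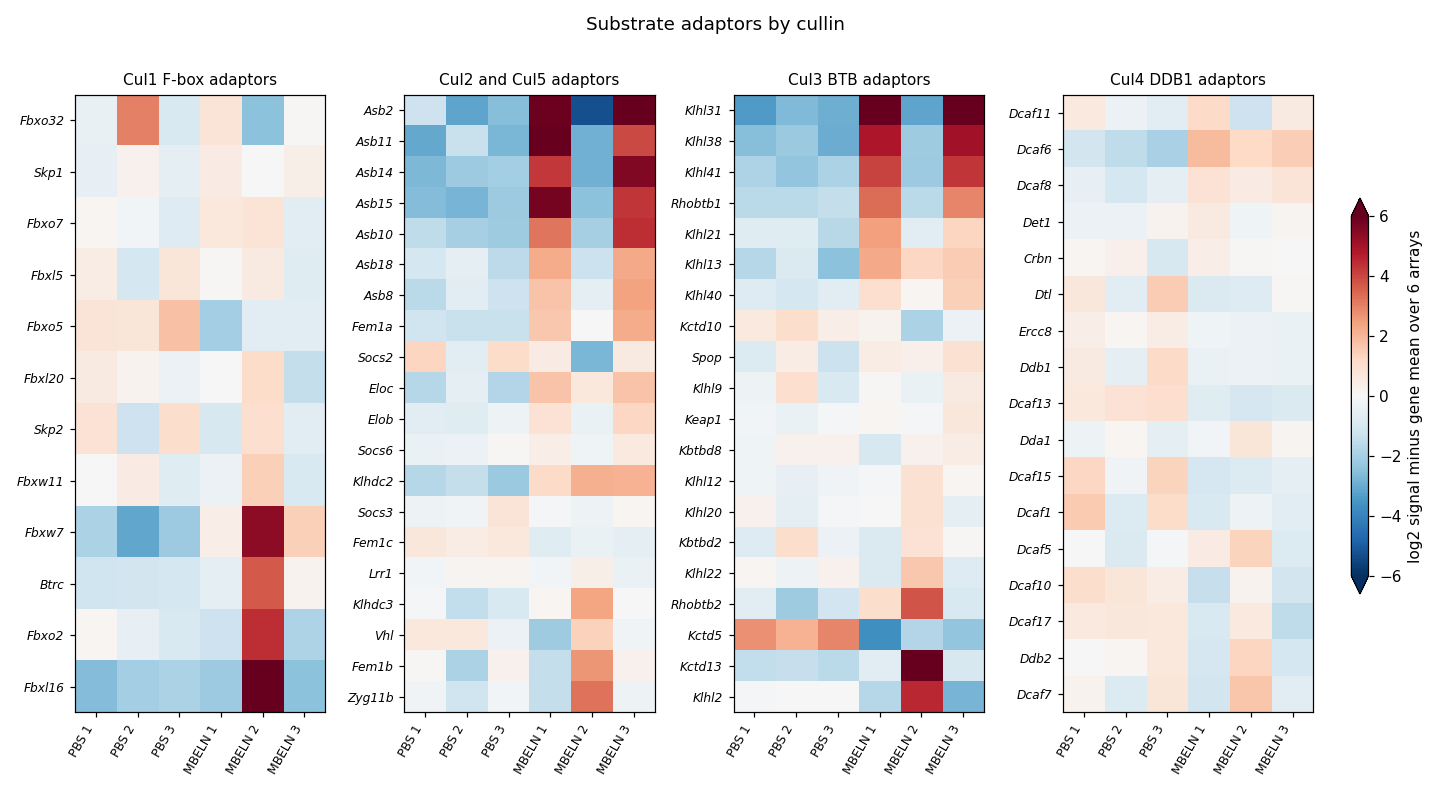
Log2 signal minus each gene's mean over the 6 arrays (colour) for the adaptor lists of Cul1, Cul2 and Cul5, Cul3 and Cul4 (panels), with genes in rows and arrays in columns. Colours end at 6 above and below the mean, and larger deviations take the end colour. Adaptors such as Asb15 and Klhl31 stand out in MBELN 1 and 3 and Fbxl16 in MBELN 2.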

How the data were processed

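Trizol extracts were labelled as biotinylated cRNA from 90 ng of RNA, per the labels' protocols, which also name a sequencing assay. The submitters' processing notes name Transcriptome Analysis Console 4.0. How probes were summarized and normalized, and on which build, is not given in the sources used here. Values that the authors deposited are read here as log2 from their range, which no source states. Of 28846 probe sets, 6640 array controls were left out and 22206 were tested, of which 19572 had 1 gene symbol and 2634 none in the platform annotation.

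The comparison of MBELN with PBS was a two-sided test in limma 3.58.1 (lmFit, eBayes; R 4.3.3), without covariates, with Benjamini-Hochberg adjustment over all 22206 probe sets and a threshold of 0.05. The spread had 4 residual and 1.66 prior degrees of freedom. Of several probe sets of a gene, the one with the highest mean over 6 arrays stood for it. The procedure was tested on simulated data. Alternatives were other normalizations, variance models, filters, blocks, thresholds and arrays left out. The hybridisation control level is the mean of 4 control probe sets, which splits the arrays into PBS 2, MBELN 1 and MBELN 3 (higher) and PBS 1, PBS 3 and MBELN 2 (lower). The same split sets the heart-marked arrays apart from the neuron-marked one, and PBS 2 apart from PBS 1 and PBS 3. The members, the gene lists and the setting without both arrays numbered 2 were chosen with earlier results of these data known. Named were all measured members, the NEDD8 lists, up to 4 genes past the threshold of each adaptor list or, with none, the one with the largest difference, and the 3 genes most like a cullin past the threshold; other genes were named outside this rule. Each group mean and SD rests on 3 arrays. Figures were drawn with matplotlib 3.10.9.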

Additional observations from a re-analysis of the deposited data

How the results depend on the processing

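Counts past the threshold are given in the order all probe sets, cullins and Nedd8, and the 92 pathway genes; they were 1150, 1 and 7 as reported. Quantile normalization (1132, 1 and 8) and median centring (1161, 1 and 7) left them within 1.5 times. They were 1141, 0 and 6 with dim probe sets left out, 865, 0 and 5 with a trended robust variance, 5757, 4 and 46 with array weights, and 1375, 0 and 9 with a block for brighter or dimmer hybridisation controls. In the arrays with brighter controls they were 4174, 2 and 35, and in those with dimmer controls 7234, 3 and 29, each with 1 residual degree of freedom and a lone array assumed to vary like the others. Without both arrays numbered 2 they were 6769, 3 and 52, at a threshold of 0.01 they were 407, 0 and 2, and at 0.1 they were 1772, 1 and 13. Leaving out 1 array at a time gave 377 (without PBS 1) to 3738 (without MBELN 2), 0 to 2, and 0 (without PBS 3) to 40. Between arrays of the same replicate number, the deviations from the group means had correlations of -0.0315, -0.0718 and -0.0557. Tissue markers differed within each group, so these values cannot show whether the numbers pair the arrays. With the number as a replicate block the counts were 456, 0 and 0.

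Some differences that did not pass changed sign. In the arrays with dimmer controls, Cul1 was 0.29, Cul4a -1.001, Cul4b 0.37, Nedd8 -0.58, Nae1 -0.45, Uba3 -0.17, Ube2f -0.24, Cops5 -0.28, Cops6 -0.69, Uchl3 -0.22, Cand1 0.66 and Cand2 -0.81. In those with brighter controls, Glmn was -0.17. Leaving out 1 array gave -0.048 (without MBELN 1) to 1.19 for Cul4a, -0.51 to 0.15 (without MBELN 1) for Cul4b and -0.63 to 0.22 (without MBELN 2) for Senp8, which was 0.41 with array weights and 0.37 without both arrays numbered 2. The arrays with dimmer controls were PBS 1, PBS 3 and the neuron-marked MBELN 2, and those with brighter controls were PBS 2 and the heart-marked arrays. Control brightness and tissue markers cannot be told apart in fits within those arrays. The cause of these changes was not tested. The differences of Cul2, Cul3, Cul5, Cul7 and Cul9 were positive in all 16 alternative fits, and those of Cul3 passed in 0 of them. Each member had 1 probe set, so the alternative of another probe set gave no value. The PBS signals of Cul9 lay near the dim level, and those of Cand2 below it. The signal of Klhl13 in PBS 3 and that of Kctd5 in MBELN 1 also lay below it.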
